A study of Mus musculus with 6 samples.

Results

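Ribosomal protein genes were compared between wild-type and *Prdm14*-deficient mouse ES cells, with the proteins of the cytosolic ribosome and those of the mitochondrial ribosome kept apart. Genes were taken as members by their platform symbol, Rpl or Rps followed by a digit and Rplp0 to Rplp2 for the cytosolic set, and Mrpl or Mrps followed by a digit for the mitochondrial set. The 3 genes of the Rps6k kinases, whose symbols begin in the same way, were left out. This gave 132 genes of the 8343 tested, 59 in the cytosolic set (35 of the large and 24 of the small subunit) and 73 in the mitochondrial set (46 of the large and 27 of the small subunit, by symbol). All 132 members named by the platform annotation passed the filter on low signals, but that annotation lists only probes detected on at least 1 array. *Rpsa*, *Rpl7*, *Rpl10*, *Rps27*, *Rpl39l* and *Rpl10l* are not named in it and were not analysed here. The cytosolic symbols also take in 3 genes that are not ribosomal proteins in the strict sense, namely *Rps19bp1*, which encodes a protein that binds RPS19, *Rps23rg1*, a gene that arose by retroposition, and *Rps4l*, which RefSeq annotates as a transcribed pseudogene.

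The arrays were Mouse WG-6 BeadChips of Illumina, which carried RNA of 3 wild-type and 3 *Prdm14*-null samples, each on its own array. Both genotypes were embryonic stem cells of C57BL/6 background, kept in 2i, a medium with inhibitors of MEK and of glycogen synthase kinase-3. The wild-type samples are labelled as controls, and the null cells, derived in the same medium, lacked *Prdm14*, which encodes a PR-domain transcriptional regulator of naive pluripotency and germ cells. By the labels, samples of 1 genotype are successive passages. More than 1 line per genotype is not mentioned, so p-values cover the spread among these passages alone, and genotype and cell line cannot be told apart.

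The cytosolic ribosome translates nuclear-encoded mRNAs, and its proteins are made in near-equal amounts in growing cells. Their mRNAs typically begin with a run of pyrimidines, through which mTOR signalling controls their translation as a group. The mitochondrial ribosome is built from nuclear-encoded proteins on mitochondrial rRNA and makes the few proteins that the mitochondrial genome encodes, all of them subunits of oxidative phosphorylation. The mRNAs of cytosolic ribosomal proteins are among the most abundant in dividing cells such as ES cells.

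The start regions of the members were read from RefSeq promoters of the assembly GRCm38.p6, which held a start for 115 members and none for 17. 2 sequence features were searched for there, and neither entered the choice of genes. A run of at least 8 pyrimidines (C or T, on the coding strand) between 6 bases before and 12 bases from the start on was present at 17 of 60 cytosolic starts (28.3%), at 2 of 71 mitochondrial starts (2.82%) and at 1862 of all 32851 starts in the table (5.67%). The motif CCGGAAG, the core bound by ETS factors, on either strand of the 300 bases around the start, was found at 35% of cytosolic and 36.6% of mitochondrial starts, against 8.86% of all starts. The windows that follow show 10 bases before and 20 bases from the annotated start on, 5′ to 3′ on the coding strand, with the pyrimidine run in capitals where there is one. Rps6 and Rps9 are shown as cytosolic starts with such a run, Rplp0 as 1 of the cytosolic starts without one, which were the majority, and the others because they are the starts of the 5 genes called different between the genotypes, *Rpl3l* with 2 annotated starts.
Rps6, chr4:86857348-86857377, minus strand: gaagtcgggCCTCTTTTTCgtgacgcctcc
Rps9, chr7:3704031-3704060, plus strand: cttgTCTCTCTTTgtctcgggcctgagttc
Rplp0, chr5:115559457-115559486, plus strand: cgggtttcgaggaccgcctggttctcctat
Rpl14, chr9:120571507-120571536, plus strand: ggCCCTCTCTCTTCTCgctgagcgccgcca
Rpl3l, first start, chr17:24727816-24727845, plus strand: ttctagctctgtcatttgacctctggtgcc
Rpl3l, second start, chr17:24732675-24732704, plus strand: caacagctacagtgccccaaatgtcctgaa
Mrpl3, chr9:105053258-105053287, plus strand: gcccggctgtgCTTTTCCTCCgcggagggc
Mrpl39, chr16:84735225-84735254, minus strand: ccgggacgccgagctaccttggctacttcg
Mrps10, chr17:47369187-47369216, plus strand: ccctccacggtagagagggccatggaaacc

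*Mrpl3* thus had 1 of the 2 mitochondrial starts with a pyrimidine run. The absence of a run in a window says only that these letters are not there at the annotated start.

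*Prdm14* itself was measured first as a check of the labels. Its normalized log2 signal was 8.49, 8.51 and 8.42 in wild-type cells and 5.03, 5.13 and 4.86 in the null cells, where no array was above background. It was thus at least 6.62-fold lower in the null cells (limma, adjusted p = 2.46e-07), a bound in which each null array counts with the higher of its lowest detected signal and the signal of the probe. *Prdm14* passed the filter on low signals only through the wild-type arrays, so this p-value followed in part from the filter. The arrays differed in brightness, with median deposited signals between 56.8 and 80.6 and between 13456 and 14901 probes detected per array. Array correlations were 0.99 to 0.994 within a genotype and 0.958 to 0.962 between genotypes. All 8 ES cell markers examined were above background on every array. Of these, 2 were called higher in the null cells (25%, beside 15.1% of all tested genes) and 6 were not called. The 2 were *Pou5f1*, with a log2 difference of 0.60 (limma, adjusted p = 0.00321), and *Sox2*, with 0.54 (adjusted p = 0.00421). Of 8 fibroblast markers, 2 were among the tested genes, *Thy1* and *Fbln1*, with a summed normalized signal of 1530 to 2818 in wild-type and 998.6 to 1478 in null cells. This sum follows the brighter *Fbln1*, whose log2 difference was -1.03 (adjusted p = 0.0118), while *Thy1* was not above background in wild-type cells and at least 2.51-fold higher in null cells (adjusted p = 0.000213). *Thy1* entered the tested genes only through the null arrays, so its call followed in part from the filter. Of 10 extra-embryonic endoderm markers, only *Dab2* was among the tested genes, at 68.07 to 105.3 in wild-type and 91.46 to 296.3 in null cells. The remaining fibroblast and endoderm markers had no annotated probe that passed the filter on low signals. The part of other cells in the values that follow was not tested.

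Few ribosomal protein genes differed between the genotypes. At an adjusted p under 0.01, 5 of the 132 members were called (3.79%), where 15.1% of all tested genes were called (limma, Benjamini-Hochberg over all tested probes). *Rpl14* was detected on the null arrays alone and entered the tested genes only through them, so its call followed in part from the filter. In the cytosolic set 2 genes were higher and 0 lower in the null cells, *Rpl14* and *Rpl3l*. In the mitochondrial set *Mrpl3* and *Mrpl39* were higher and *Mrps10* was lower. Over all tested genes, 6.72% were called higher and 8.41% lower.

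The members as a group stayed close to 0. The median log2 fold change, null minus wild-type, was -0.031 over the cytosolic genes and -0.019 over the mitochondrial genes, beside 0.024 over all tested genes. The middle 50% of the cytosolic genes lay between -0.082 and 0.069 and of the mitochondrial genes between -0.116 and 0.11, a narrower range than the -0.195 to 0.22 of all genes. For 53 of the 59 cytosolic genes (89.8%) and 62 of the 73 mitochondrial genes (84.9%) the 95% confidence interval of the change lay wholly within 0.5 on the log2 scale in either direction, which was so for 51.8% of all genes. Many cytosolic probes were near saturation, a mark defined below. The interval lay within 0.5 for 35 of these 36 genes (97.2%) and for 18 of the other 23 cytosolic genes (78.3%). The median standard error was 0.1 in both sets and 0.116 over all genes. These values depend on the scaling of the arrays: with median scaling in place of quantile normalization the cytosolic median was -0.155 and the mitochondrial median 0.006, while that of all genes was 0.016.

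**Figure D1:**
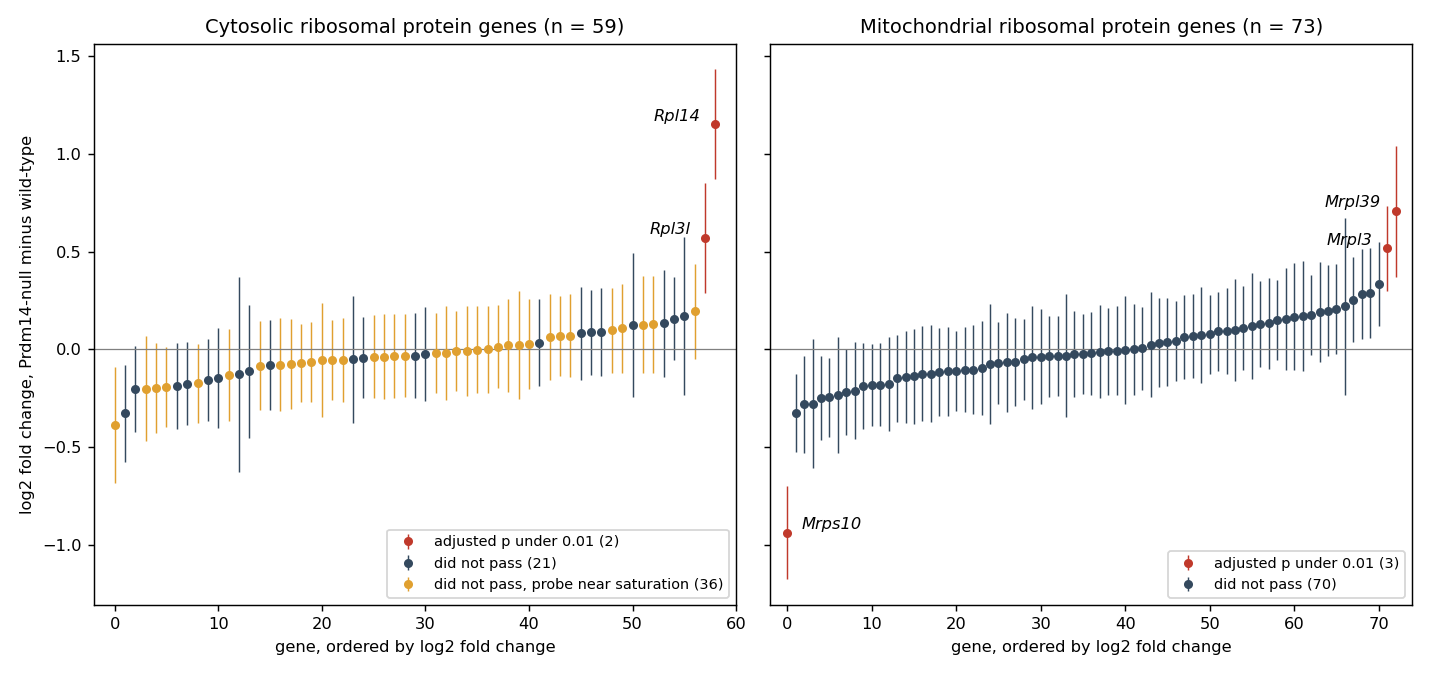
Log2 fold change (null minus wild-type, y axis) of each cytosolic (left, 59) and mitochondrial (right, 73) ribosomal protein gene, ordered by its value along the x axis, with 95% confidence intervals from the moderated fit. Red points mark the 5 genes called at an adjusted p under 0.01 and orange points the 36 cytosolic genes whose probe was near saturation; the other genes form a shallow slope through 0.

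Separation of the arrays was also less frequent among the members. The 3 null and 3 wild-type values did not overlap for 13 cytosolic genes, 3 of them higher and 10 lower in the null cells, and for 24 mitochondrial genes, 13 higher and 11 lower. These are 22% and 32.9% of the sets, beside 45.1% of all tested genes. At an unadjusted p under 0.05, 6.78% of the cytosolic and 15.1% of the mitochondrial genes passed, beside 39.9% of all genes.

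*Rpl14* encodes a protein of the large subunit. Its log2 signal was 4.83, 5.07 and 4.94 in wild-type cells and 5.88, 6.22 and 6.20 in null cells. No wild-type array was above background and all 3 null arrays were, so that the signal of the *Rpl14* probe was at least 1.36-fold higher in the null cells (adjusted p = 0.000228). It passed the filter on low signals only through the group where it was high, and with detection required on all 6 arrays it was not tested. The measured means of the genotypes were 4.95 ± 0.12 and 6.10 ± 0.19 (SD, n = 3). Its only tested probe had a mean deposited signal of 95.5, the lowest of all members, where the median over the cytosolic members was 16690. The transcripts that this probe reads were not examined here, so the level of the main *Rpl14* mRNA is not known from it. The start of *Rpl14* is among those shown with a pyrimidine run.

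*Rpl3l* encodes a paralog of RPL3 known from striated muscle. Its log2 signal was 6.25, 5.88 and 5.95 in wild-type and 6.46, 6.68 and 6.64 in null cells, with no overlap. The difference was 0.57 (standard error 0.12, adjusted p = 0.00982), just inside the threshold, and its mean signal of 127.5 was again low. Leaving out any wild-type or null sample other than wild-type 1 ended the call, with adjusted p-values from 0.0044 to 0.0431 over the 6 fits.

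*Mrpl3*, which encodes a protein near the peptidyl transferase centre of the mitochondrial ribosome, was the only member called higher with a mean signal above 300 (1404). It measured 10.19, 10.01 and 10.10 in wild-type and 10.64, 10.66 and 10.55 in null cells, a difference of 0.52 (standard error 0.10, adjusted p = 0.00475). A second probe of *Mrpl3* measured 9.98, 9.87 and 9.96 against 10.34, 10.24 and 10.17. The arrays did not overlap at either probe, but the difference at the second probe, 0.32, did not pass the threshold (adjusted p = 0.0396). Without wild-type 1 the call at the first probe held, and without any of the other 5 samples it was lost, with adjusted p-values of at most 0.0253.

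*Mrpl39*, a large subunit protein, measured 6.20, 6.18 and 5.76 in wild-type and 6.66, 6.96 and 6.64 in null cells. The groups did not overlap and differed by 0.71 (standard error 0.15, adjusted p = 0.00807). The call was lost in each of the 6 fits without 1 sample (adjusted p from 0.0116 to 0.0342), and the gene has 1 tested probe with a mean signal of 134.4.

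*Mrps10*, a protein of the small mitochondrial subunit, was the only member called lower. Its brightest probe measured 10.58, 10.70 and 10.78 in wild-type and 9.64, 9.88 and 9.73 in null cells, so that every null array lay below every wild-type array. The difference was -0.94 (standard error 0.11, adjusted p = 0.000293) and was called in each of the 6 fits without 1 sample. The other 2 probes of *Mrps10* did not show it. The second probe measured 9.72, 9.77 and 9.88 in wild-type and 9.82, 9.71 and 9.77 in null cells, a difference of -0.02 (adjusted p = 0.877). The third measured 9.08, 9.07 and 9.15 against 9.28, 9.11 and 9.16, a difference of 0.08 (adjusted p = 0.566). With the probes of each gene averaged, the difference was -0.293 and no longer passed (adjusted p = 0.0337). The transcripts that the 3 probes read were not examined here.

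**Figure D2:**
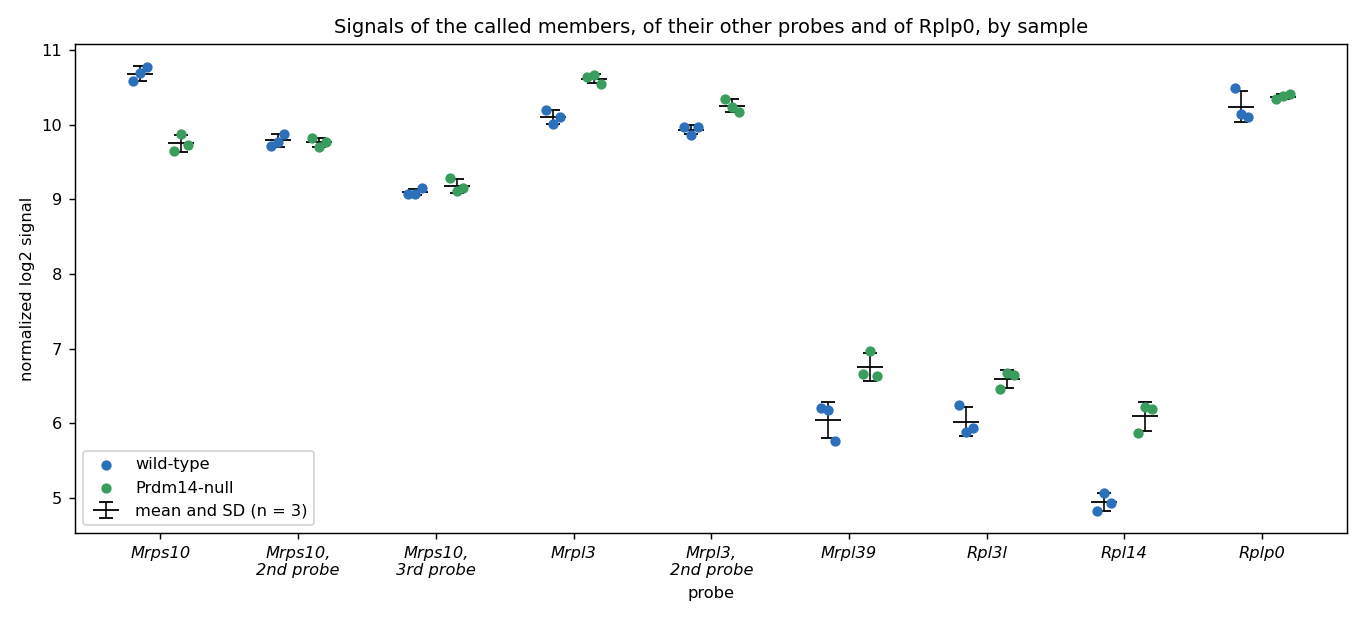
Normalized log2 signal (y axis) of the 5 called members, of the other probes of *Mrps10* and *Mrpl3*, and of *Rplp0*, 1 point per sample with the mean and SD of 3 samples. *Mrps10* separates the genotypes at its brightest probe and overlaps at the other 2, and *Mrpl3* separates them at both of its probes; levels of different probes are not to be compared.

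Further probes of the members, 3 of them at called genes, gave no call. Of the 132 members, 42 had more than 1 tested probe, with 60 probes besides the brightest, and 0 of these 60 were called, beside 13.8% of all tested probes. The change at the other probes differed from that at the brightest by 0.108 in the median and by 1.02 at most, the latter at *Mrps10*. The sign was opposite at 21 of the 60. Closest to the threshold were probes of *Mrps31* (difference 0.41, limma, adjusted p = 0.0105), *Mrpl49* (0.45, adjusted p = 0.0112) and *Mrpl33* (-0.38, adjusted p = 0.0134), singled out after their values had been seen. The remaining probes of *Mrps31* differed by 0.21 and 0.33 and that of *Mrpl33* by -0.28. Those of *Mrpl49* were mixed, at 0.19, 0.18 and -0.25.

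Below the called genes, the members with the largest changes were close to the threshold or beyond it only in some fits; they were singled out after their values had been seen. *Mrps18a* measured 10.40, 10.41 and 10.44 in wild-type and 10.08, 10.06 and 10.13 in null cells, a difference of -0.32 (adjusted p = 0.0266). *Mrps9* measured 10.43, 10.30 and 10.25 against 10.70, 10.65 and 10.64, a difference of 0.34 (adjusted p = 0.0304). Both genes separated the genotypes without passing. *Rpl34* measured 13.72, 13.94 and 13.89 in wild-type and 13.67, 13.24 and 13.48 in null cells, a difference of -0.39 (adjusted p = 0.0584), the lowest value of the cytosolic set and the member near saturation with the largest change. *Rpl21* differed by -0.33 (adjusted p = 0.0561) at a dim probe, and its other 2 probes by -0.03 and -0.10.

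The stalk of the large subunit, which recruits translation factors, is formed by the products of *Rplp0*, *Rplp1* and *Rplp2*. *Rplp0*, also called *Arbp*, is widely used as a reference gene in PCR. It measured 10.49, 10.15 and 10.10 in wild-type and 10.35, 10.38 and 10.41 in null cells, so that wild-type 1 lay above and the other wild-type samples below all null samples. The difference was 0.13, with a 95% confidence interval from -0.14 to 0.41 (adjusted p = 0.457). The only tested probe of *Rplp0* had a mean deposited signal of 1329, where the median over the cytosolic members was 16690. The transcripts that it reads were not examined here. *Rplp1* differed by 0.10 (adjusted p = 0.502) and *Rplp2* by 0.19 (adjusted p = 0.224), and both had probes near saturation.

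Several members have close copies elsewhere in the genome, and these pairs were set side by side. *Rpl3* differed by 0.02 (interval -0.22 to 0.26) where its paralog *Rpl3l* was called higher; the difference between the paralogs was not tested. *Rpl22* differed by 0.09 (interval -0.14 to 0.31) and *Rpl22l1*, at a dim probe, by -0.13 (interval -0.63 to 0.37). *Rpl36a*, on the X chromosome, differed by -0.15 and its autosomal copy *Rpl36al* by 0.03. The X-linked *Rps4x* differed by 0.02 and the pseudogene *Rps4l* by -0.04. *Rps27l*, *Rpl39* and *Rpl7l1*, whose partners were not analysed here, differed by -0.04, -0.00 and 0.16. None of these copies other than *Rpl3l* passed the test, and probes of such close copies may share signal.

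The 3 mammalian homologues of the bacterial protein S18 took different values, with *Mrps18a* at -0.32, *Mrps18b* at 0.10 (adjusted p = 0.513) and *Mrps18c* at 0.00 (adjusted p = 1). In the assembled mitochondrial ribosome the product of *Mrps18a*, like that of *Mrps30*, is placed in the large subunit, although both are counted here with the small subunit by symbol.

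Within the sets the subunits gave similar medians. The cytosolic large subunit had a median of -0.024 and a range from -0.387 to 1.151. The small subunit had a median of -0.032 and a range from -0.177 to 0.171. Of its 24 genes 0 were called, beside 15.1% of all tested genes, but 16 of the 24 had probes near saturation, so nothing is read from this count. *Rps19* and *Rps29*, the small subunit genes with the smallest change, both differed by -0.01, with intervals of -0.24 to 0.22 and -0.21 to 0.20. For the large subunit these were *Rpl9* and *Rpl39*, both at -0.00. The mitochondrial large subunit had a median of -0.022 and the small subunit of -0.012. The mitochondrial genes with the smallest change were *Mrpl45* (-0.00) and *Mrpl28* (0.01) of the large and *Mrps18c* and *Mrps27* (-0.01) of the small subunit.

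The cytosolic probes sat at the top of the range of these arrays. A probe was taken as near saturation where its deposited signal exceeded 50% of the highest signal of an array on at least 1 array, the highest signals being 26550 to 32294. This held for 36 of the 59 cytosolic genes and for 0 of the 73 mitochondrial genes, and at a mark of 25% for 43 and 2. The median deposited signal was 16690 over the cytosolic members and 1537 over the mitochondrial members, beside 398.9 over all tested genes. *Rplp1* and *Rpl9* held the highest signal of an array.

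Signals this high moved less between arrays than signals of 100 to 300 did. Wild-type 3 was brighter than wild-type 1 by a median ratio of 1.97 among probes with a mean signal of 100 to 300, after background correction, and by 1.28 among probes over 20000. For null 1 against null 3 the ratio went from 1.22 to 1.17, with its lowest value, 1.11, at 10000 to 20000. The share of probes called fell from 16.4% at 100 to 300 to 2.7% at 10000 to 20000 and 0% over 20000, and the standard deviation of the log2 fold change fell from 0.586 to 0.114. Of the cytosolic genes near saturation 0 of 36 were called, and of the other genes near saturation 0 of 49. The arrays of the genotypes did not overlap for 5 of these 36 genes (13.9%) and for 22 of these 49 (44.9%), the latter close to the 45.1% of all tested genes. At an unadjusted p under 0.05, 2.78% of the 36 and 18.4% of the 49 passed. The part of the signal range in the lack of calls among the bright cytosolic genes was not tested.

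The mitochondrial genes did not lie at this end of the range. Of the 59 mitochondrial genes with a mean signal of at least 1000, 2 were called (3.39%), *Mrpl3* and *Mrps10*, beside 9.17% of the 2017 other genes that bright but not near saturation. In these 59 genes the interval lay within 0.5 for 52 (88.1%), and in the other genes for 69.5%. The 23 cytosolic genes not near saturation included both called ones (8.7%) and had a median of -0.031. The arrays of the genotypes did not overlap for 8 of these 23 (34.8%), beside 45.1% of all tested genes. At the dim end, 3 of the 11 members with a mean signal under 300 were called (27.3%), beside 20.2% of the other genes in that range. These were *Rpl3l*, *Mrpl39* and *Rpl14*, the last of which entered only through the null arrays, so nothing is read from this share.

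**Figure D3:**
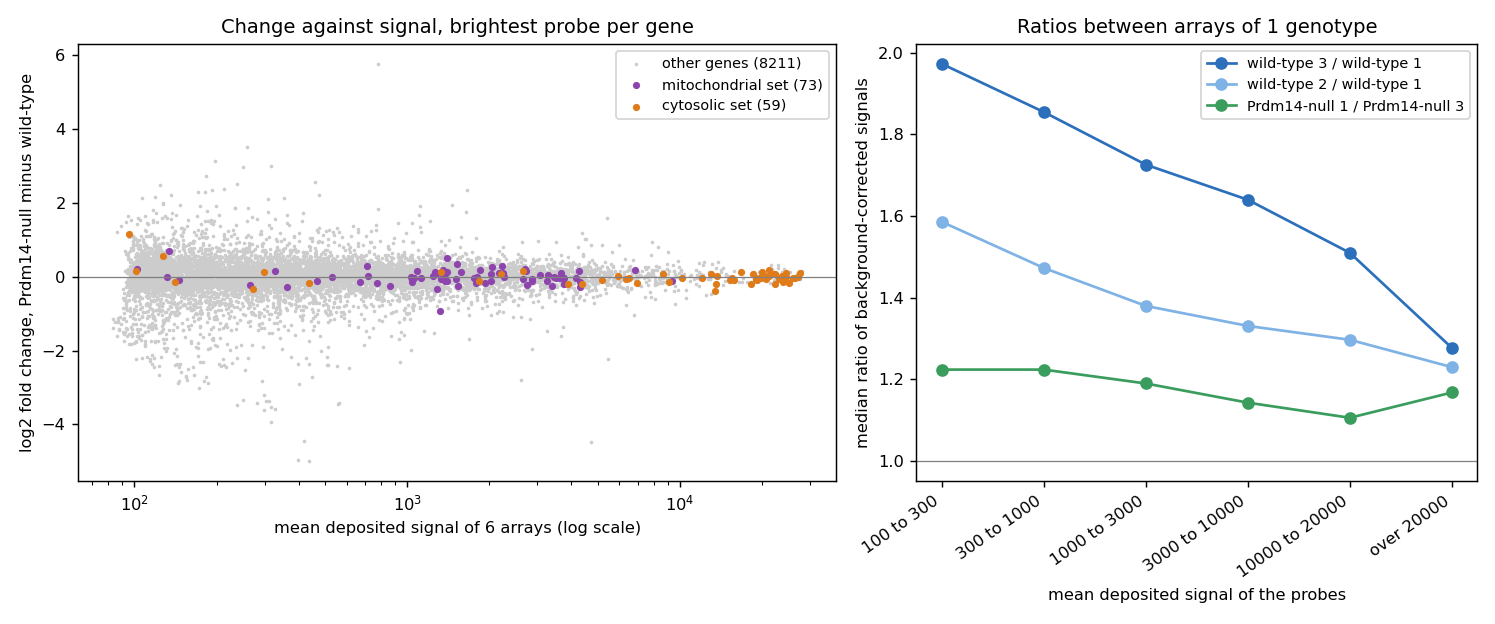
Left, log2 fold change (null minus wild-type) of the brightest probe of each gene against its mean deposited signal over 6 arrays (log scale), with the cytosolic set in orange, the mitochondrial set in purple and 8211 other genes in grey; right, median ratio of background-corrected signals between arrays of 1 genotype in 6 ranges of mean signal. The cytosolic genes gather at the bright end, where the ratio of wild-type 3 to wild-type 1 is 1.28 in place of 1.97.

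Before normalization, the probes of the cytosolic set held 5.53%, 4.94% and 4.74% of the summed signal of the wild-type arrays and 4.67%, 4.61% and 4.77% of that of the null arrays. The share was highest on wild-type 1, the dimmest array, and the genotypes overlapped. The mitochondrial probes held 0.838%, 0.799% and 0.853% in wild-type and 0.845%, 0.879% and 0.855% in null cells, again with overlap. After normalization the median log2 level over the cytosolic genes was 14.04, 13.94 and 14.05 in wild-type and 14.11, 14.03 and 13.99 in null cells.

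On chromosomes 11 and 15 the members lay mostly below 0, as did the other genes of these chromosomes. On chromosome 11, 14 of 16 members had a value below 0 and the median was -0.114, and among the 708 other genes there 71.6% were below 0 with a median of -0.143. On chromosome 15 the count was 4 of 5 members with a median of -0.147, and the other genes had a median of -0.177. None of these 21 members was called, among them *Rpl23*, *Rpl26* and *Rpl19* on chromosome 11 and *Rpl30* on chromosome 15, whereas 14.5% and 13.9% of the other genes of chromosomes 11 and 15 were called lower. The 111 members on other chromosomes had a median of -0.008, with -0.021 for the cytosolic and 0 for the mitochondrial genes. Of the X-linked members, *Rpl36a*, *Rpl39* and *Rps4x*, 2 were below 0, and the other X-linked genes had a median of 0.13. The part of these chromosome-wide shifts in the values of single members was not tested beyond the removal of each chromosome's median, after which *Rpl3l* was no longer called.

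**Figure D4:**
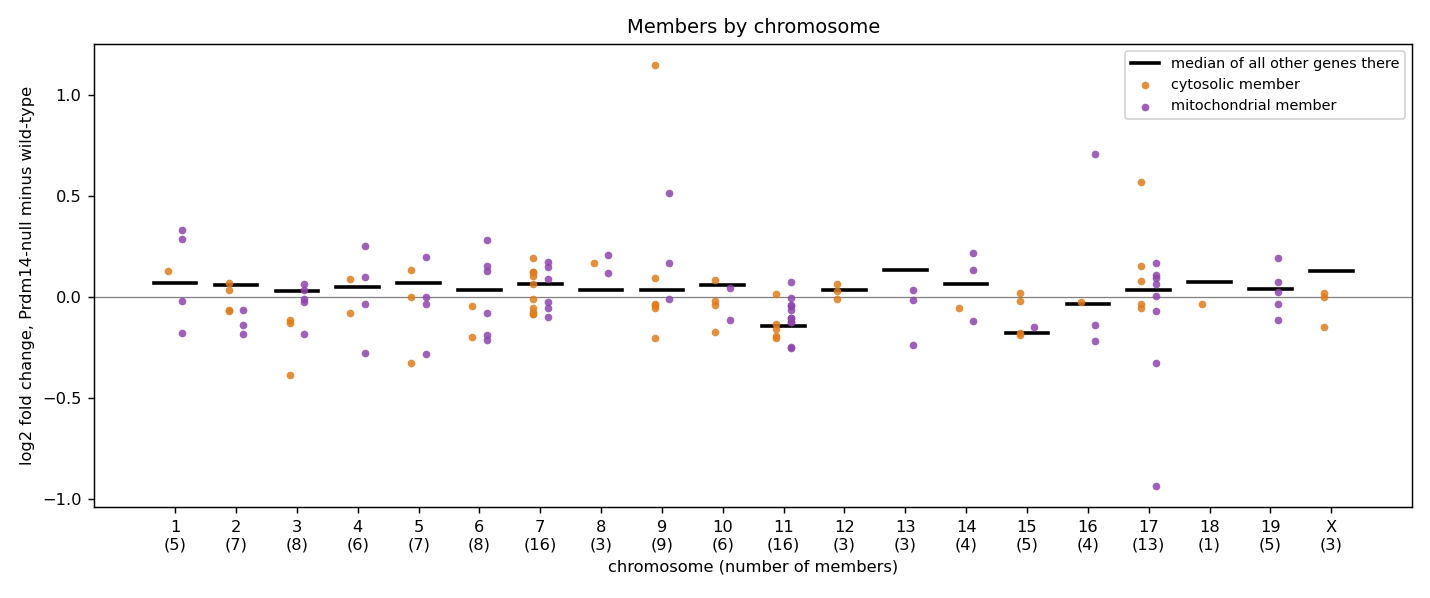
Log2 fold change (null minus wild-type, y axis) of each member by the chromosome of its gene (x axis, with the number of members), cytosolic in orange and mitochondrial in purple, and black bars for the median of all other genes of that chromosome. On chromosomes 11 and 15 the members lie mostly below 0, as do the other genes there.

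Genes that make and use ribosomes were examined beside the ribosomal proteins. Of 13 measured genes of RNA polymerase I and rDNA transcription, 0 were called, beside 15.1% of all tested genes, with a median of 0.032. Of 67 genes of pre-rRNA processing and subunit assembly, 2 were higher and 0 lower, beside 6.72% higher and 8.41% lower over all tested genes. Their median was 0.083, with 46 of 67 values above 0, and over all tested genes the median was 0.024, with 4435 of 8343 above 0. These were *Nop56*, a core protein of box C/D small nucleolar ribonucleoproteins, and *Sbds*, which acts in the maturation of the large subunit.

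*Nop56* measured 11.16, 11.05 and 11.12 in wild-type and 11.59, 11.60 and 11.48 in null cells, a difference of 0.45 (adjusted p = 0.00805). *Sbds* measured 11.13, 11.13 and 11.26 against 11.61, 11.79 and 11.59, a difference of 0.49 (adjusted p = 0.0077). Neither overlapped between genotypes, and both lost the call in each of the 6 fits without 1 sample, with adjusted p-values from 0.0147 to 0.0393. Of 32 cytosolic translation factors, 0 were called, again beside 15.1%, with a median of -0.015.

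On the mitochondrial side, 1 of 16 translation factors was called (6.25%), beside 15.1% of all tested genes. *Mtif3*, the mitochondrial initiation factor that keeps the subunits apart before initiation, measured 8.87, 8.85 and 9.004 in wild-type and 7.96, 8.29 and 8.34 in null cells, a difference of -0.71 (standard error 0.12, adjusted p = 0.00306). Without wild-type 3 the call was lost (adjusted p = 0.0156), and it held in the other 5 fits without 1 sample. Of 20 genes of mitochondrial ribosome assembly and rRNA modification, 1 was called (5%). *Gtpbp10*, a GTPase of large subunit assembly, measured 6.71, 6.84 and 6.86 in wild-type and 7.87, 7.94 and 8.06 in null cells, a difference of 1.15 (standard error 0.10, adjusted p = 6.99e-05), and was called in every fit without 1 sample. Its probe was dim, with a mean signal of 232.6, and that of *Mtif3* had 438. Of the genes outside the 2 sets with a mean signal under 300, 20.2% were called. *Dap3*, *Ptcd3* and *Chchd1*, mitochondrial ribosomal proteins whose symbols lie outside the rule, differed by 0.20, 0.09 and 0.05 and did not pass.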

How the data were processed

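The authors deposited signal intensities of 45281 probes for each of 6 arrays, without normalization. A detection p-value was deposited beside each signal. The authors also deposited processed log2 values of 15961 probes, for which the submitters' processing notes name lumi. The signals were analysed with limma 3.58.1 in R 4.3.3: normal-exponential background correction (negative controls inferred from detection p-values), addition of an offset of 16, quantile normalization, and a linear model with genotype as its only term. Testing covered probes with detection p under 0.01 on 3 or more arrays (14436, of which 12582 with 1 symbol, 6 with several and 1848 with none). Benjamini-Hochberg adjustment ran over all of them, with a threshold of 0.01 after the methods of the study. Each gene was represented by its probe with the highest mean signal. Chromosomes came from RefSeq genes of GRCm38.p6, matched by gene identifier for 8333 of 8343 genes.

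The genes named are *Prdm14*, the stalk genes, for each subunit the called members (up to 6 per direction) and the 2 with the smallest change, the measured paralogs, and up to 3 called genes of each pathway list; further genes were singled out once their values were known. The members and lists were chosen with earlier results of these data known. The linear model was run on simulated data with independent noise around the normalized means. That run covered the model step only, not background correction, normalization, saturation or the filter on low signals. The number of arrays limits the precision. No block for the BeadChip was fitted, since the assignment of samples to BeadChips is not known here. Replicate numbers were checked for pairing and did not pair the samples.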

Additional observations from a re-analysis of the deposited data

How the results depend on the processing

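Among the members, the 2 calls that held in each of the 6 fits without 1 sample were those of *Rpl14* and *Mrps10*. The filter on low signals was not redone in these fits. *Rpl14* had passed it only through the 3 null arrays, so its calls there are not read as added support. Over these fits the cytosolic genes called higher numbered 1 to 2 and the mitochondrial ones 0 to 1, the cytosolic median was -0.029 to -0.013 and the mitochondrial median -0.035 to 0.017, and over all genes 299 to 440 were called higher and 461 to 606 lower. Cytosolic genes called higher fell from 2 to 1 without background correction, with an offset of 50, with both median scalings (over all tested probes and over those of no member), without normalization, with the authors' processed values, with no filter on dim probes, with detection required on all 6 arrays, with trend and robust eBayes, with the replicate block and with chromosome medians removed, and to 0 without members of mean signal under 300, an alternative chosen after seeing the data. In the settings that left 1, the lost gene was *Rpl3l*, except where detection on all 6 arrays was required, which left out *Rpl14*. Cytosolic genes called lower rose from 0 to 1 (*Rpl34*) with trend and robust eBayes. Mitochondrial genes called higher fell from 2 to 1 with both median scalings, no filter, the replicate block and without members of mean signal under 300, and to 0 without normalization, and rose to 3, with *Mrps9*, with trend and robust eBayes and at an adjusted p under 0.05. With the processed values there were 2, *Mrps9* in place of *Mrpl39*. Those called lower went from 1 to 2, with *Mrps18a*, without background correction, with the processed values, with trend and robust eBayes and at an adjusted p under 0.05, and to 0 without normalization and with the mean of all probes of a gene. Calls among the members were thus 2 higher and 1 lower with median scaling, against 4 and 1. The cytosolic median was -0.155 with both median scalings, -0.057 without normalization and -0.059 with chromosome medians removed, and the mitochondrial median 0.104 without normalization, while the median of all genes was 0.016, 0.114 and 0 in these settings. All genes called were 222 higher and 303 lower without normalization, 366 higher with no filter, and 1112 and 1176 at an adjusted p under 0.05. The cause of these moves was not tested, other than where fewer samples or members entered.

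The replicate numbers did not pair the samples: the correlations of the deviations of same-numbered samples were -0.027, -0.064 and -0.125. With the replicate block, 1 cytosolic and 1 mitochondrial gene were called higher and 1 mitochondrial gene lower, and *Rpl3l* (adjusted p = 0.0266), *Mrpl3* (0.0153), *Sbds* (0.0227) and *Nop56* (0.0252) lost their calls; over all genes 408 were called higher and 607 lower. Of 638 values of the 32 named genes recomputed in all settings, 574 kept their call or lack of one, 60 lost a call, 4 gained one and 0 reversed. Of those that passed in neither setting, 71 had the opposite sign. Only a called gene can lose a call, so the 60 losses all fell on genes called in the main fit. The named genes include those with the smallest change, so the 574 do not measure how well the calls held. Probe brightness limits the rest: 36 cytosolic probes lie near saturation, where signal ratios between arrays of 1 genotype were smaller, and *Rpl14*, *Rpl3l* and *Mrpl39* rest on single probes near background.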
